A study of Mus musculus with 9 samples.

Results

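The genes described here serve the apical side of epithelial cells or its separation from the basolateral side. These are 10 genes of vesicle trafficking, tight junctions and polarity, out of 22180 gene symbols on the array. They were taken from a fixed list of names and comprise the small GTPase genes Rab25, Rab17 and Rab27b, the RAB27 effector genes Sytl1 and Sytl2, the myosin motor genes Myo5b and Myo5c, the clathrin adaptor gene Ap1m2, the tight junction gene Cgn and the polarity gene Crb3. Each had 1 probe set named by that symbol alone. Of the 10, 9 passed the filter on low signal that left 16635 genes for testing; Sytl2 did not. The names were selected on the intensity values of these same arrays, with the differences between tumours and HG-PIN known, so the differences below describe the genes, and nothing about the list as a class is drawn from them.

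Simple epithelia send newly made and recycled membrane proteins to the apical surface through recycling endosomes. RAB GTPases mark these vesicles, myosin V motors carry them along actin, synaptotagmin-like proteins tether secretory vesicles to the plasma membrane, and AP-1 adaptors sort cargo at the trans-Golgi network and endosomes. In secretory glands such as the prostate, the same machinery delivers secretions to the lumen, while Crumbs proteins and the tight junction keep the apical and basolateral membranes apart.

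The lesions were taken from male mice aged 12 months on a mixed strain background, and fell into 3 groups of 3 arrays. The first group was poorly differentiated adenocarcinoma, labelled solid tumors, of PbCre;T-3Mb-Erg/+;PtenL/L mice (tumours). The second was high-grade prostatic intraepithelial neoplasia, a dysplastic lesion within the gland, of the same 3 mice (T-3Mb-Erg HG-PIN). The third was the same kind of lesion in 3 other mice, PbCre;PtenL/L, without the T-3Mb-Erg allele (PbCre;PtenL/L HG-PIN). All 6 mice thus carried PtenL/L and PbCre, a Cre recombinase driven by the probasin promoter of prostate epithelium, so no group is normal prostate, and no tumour came from a mouse without T-3Mb-Erg. The series asks about genes lying between Tmprss2 and Erg, which the T-3Mb-Erg allele concerns. Lesions were cut by laser from fixed, hematoxylin-stained sections guided by histology, and amplified RNA was hybridised to an Affymetrix mouse whole-transcript array.

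Levels are log2 of the deposited intensity. Olfactory and vomeronasal receptor genes, 1390 probe sets, served as a gauge of background, set at their 95th percentile of 4.81. By that gauge these are dim genes: the mean level lay under it for 9 of the 10 in tumours, for 4 in T-3Mb-Erg HG-PIN, with 5 in PbCre;PtenL/L HG-PIN. Arrays have no read depth, and their number, 3 a group, limits the precision. The 95th percentile of log2 signal on an array, a measure of its range, was 6.49, 6.15 and 6.65 in tumour replicates 1 to 3, 6.61, 6.36 and 6.26 in T-3Mb-Erg HG-PIN, with 6.46, 6.16 and 6.49 in PbCre;PtenL/L HG-PIN. The epithelial label was checked against 10 luminal markers, all of which had means above the gauge in both HG-PIN groups, whereas 6 of the 10 (Epcam, Cdh1, Cldn4, Cldn7, Elf3 and Ehf) were under it in tumours.

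Sequence just upstream of the start is shown for the 3 genes whose tumour levels lay furthest below HG-PIN, Myo5c, Rab25 and Ap1m2. Each window is the 250 bases before the RefSeq start (assembly GRCm38.p6), 5′ to 3′ on the gene's strand, with matches to the searched motifs in capitals: CACCTG or its reverse complement CAGGTG, an E-box of the kind bound by SNAI and ZEB repressors; CCGGAA, a core of ETS factors; and AACCNGTT, of grainyhead factors. The windows are chr9:75231764-75232013 on the plus strand for Myo5c, chr3:88548280-88548529 on the minus strand for Rab25 and chr9:21312334-21312583 on the minus strand for Ap1m2.
Myo5c: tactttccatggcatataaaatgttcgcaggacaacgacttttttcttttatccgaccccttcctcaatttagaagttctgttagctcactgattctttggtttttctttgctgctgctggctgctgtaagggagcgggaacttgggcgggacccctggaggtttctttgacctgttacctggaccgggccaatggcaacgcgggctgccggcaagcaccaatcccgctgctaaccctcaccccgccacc
Rab25: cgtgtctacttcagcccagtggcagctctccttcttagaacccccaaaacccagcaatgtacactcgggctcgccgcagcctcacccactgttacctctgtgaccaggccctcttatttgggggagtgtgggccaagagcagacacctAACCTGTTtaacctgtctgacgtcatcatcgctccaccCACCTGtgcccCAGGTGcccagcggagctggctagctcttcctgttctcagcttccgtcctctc
Ap1m2: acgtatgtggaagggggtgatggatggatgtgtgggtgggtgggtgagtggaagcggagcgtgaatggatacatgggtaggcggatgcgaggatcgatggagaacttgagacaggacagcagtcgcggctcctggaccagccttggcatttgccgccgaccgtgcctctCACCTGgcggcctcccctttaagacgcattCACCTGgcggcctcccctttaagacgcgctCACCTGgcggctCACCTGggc

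The Ap1m2 window holds CACCTG 4 times, at 81, 51, 21 and 9 bases before the start, with the stretch between the matches partly repeated. The Rab25 window holds it at 64 and, as the reverse complement, at 53 bases before the start, and the grainyhead motif at 102. None of the 3 motifs occurs in the Myo5c window. A window from 250 bases before to 50 after the start was searched on both strands for 7 of the 10 genes. Windows on chromosome 18 (Rab27b and Myo5b) were left out, and Sytl2 had none. CACCTG was present in 4 of them (Rab25, Rab17, Ap1m2 and Crb3) and in 20.2% of all 32851 windows, CCGGAA in 2 (Rab17 and Crb3) and in 14.9%, and AACCNGTT in 2 (Rab25 and Cgn) and in 2.09%. These matches describe the letters only; binding was not measured.

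Across the genes, tumours differed from HG-PIN of the same mice mainly in Myo5c, Rab25 and Ap1m2, which had log2 changes of -2.29, -1.39 and -1.05, while Rab17, Rab27b, Sytl1 and Myo5b lay within 0.27 of 0. Rab17 and Rab27b were under the gauge on all 9 arrays, and Myo5b was above it on only 1. A decrease in these could hardly have been seen. The comparison of both lesions asks what distinguishes the tumour from the precursor lesion within a mouse. By limma over all genes, Myo5c fell and no other tested gene of the list passed an adjusted p of 0.05: 1 of 9 called, where 0.216% of all genes were called lower. All 10 changes were negative, against 51.1% of all genes, with a median of -0.40 against -0.01 over all genes tested. At an unadjusted p under 0.05 stood 3 of the 9, against 7.65% of all genes. Tumour arrays lay below all 3 T-3Mb-Erg HG-PIN arrays for 4 of the 10, Rab25, Sytl2, Myo5c and Ap1m2, or 3 of the 9 tested, where 6.43% of tested genes did. Because the genes were picked with this comparison known, nothing is read from these shares.

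**Figure D1:**
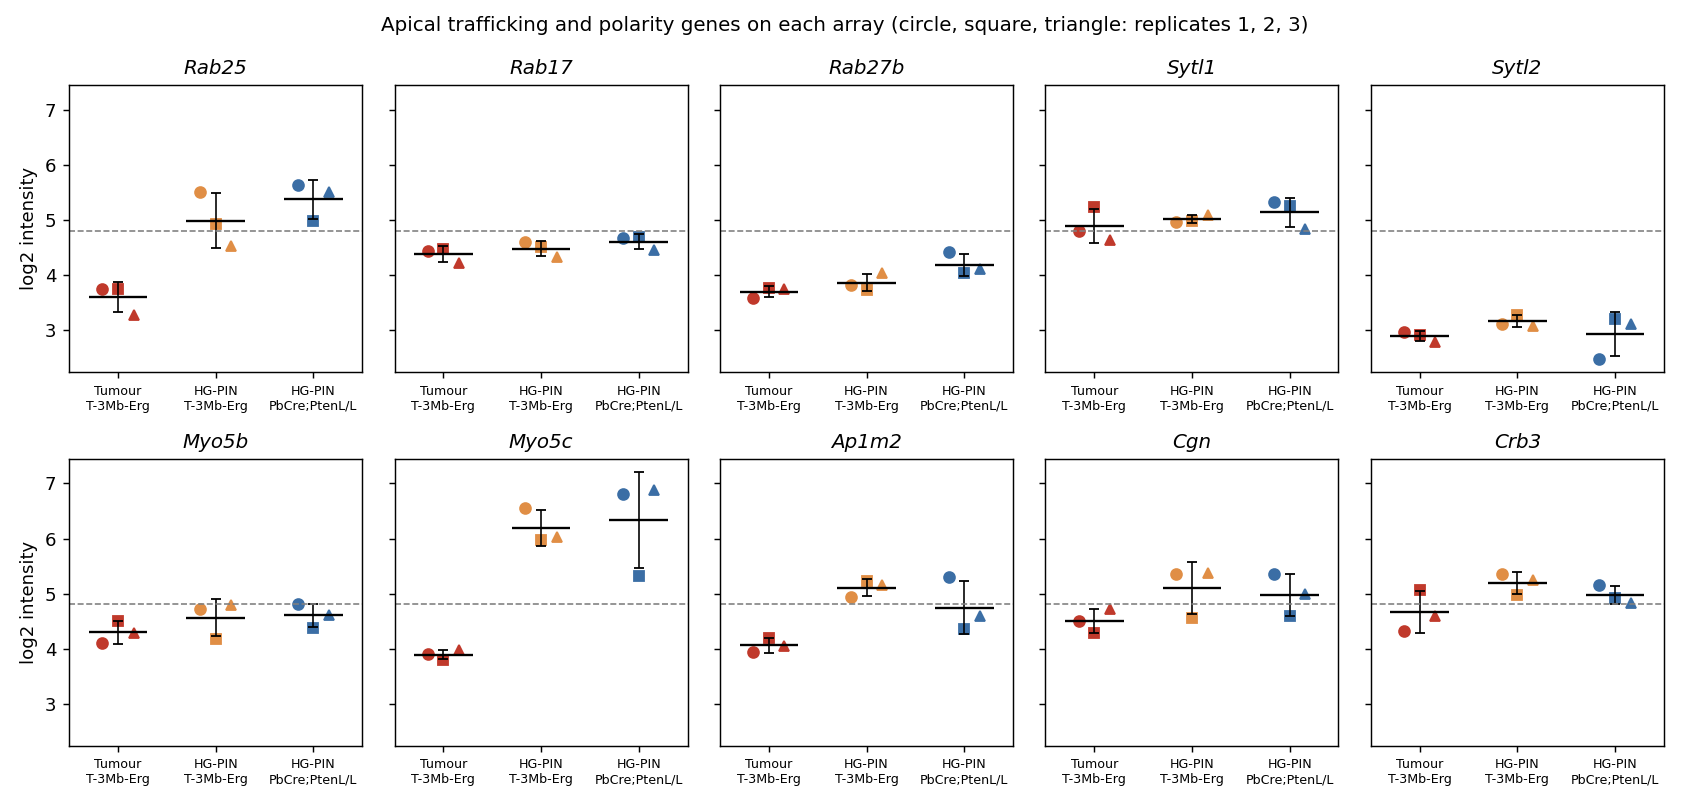
Log2 intensity (vertical axis) of each of the 10 genes on the 9 arrays, by group from left to right tumour, T-3Mb-Erg HG-PIN and PbCre;PtenL/L HG-PIN; horizontal bars are means, error bars SD (n = 3), and the dashed line is the background gauge at 4.81. Tumour points of Myo5c lie between 3.81 and 3.98, below every HG-PIN point, which start at 5.32, and Rab25 and Ap1m2 tumour points also lie below all HG-PIN points, while those of Rab17 and Sytl1 overlap both HG-PIN groups.

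Among the RAB genes, Rab25 was the one with a large difference, while Rab17 and Rab27b were under the gauge on every array. Rab25 belongs to the RAB11 family and directs recycling of apical and integrin cargo in epithelia. Its levels were 3.76, 3.76 and 3.28 in tumours, against 5.51, 4.92 and 4.53 in T-3Mb-Erg HG-PIN, with 5.63, 4.98 and 5.50 in PbCre;PtenL/L HG-PIN. All tumour arrays lay below the gauge and below all 6 HG-PIN arrays, and T-3Mb-Erg HG-PIN replicate 3 was the only HG-PIN array under the gauge. The means were 3.60 ± 0.27 in tumours, against 4.99 ± 0.49 for T-3Mb-Erg HG-PIN and 5.37 ± 0.35 for PbCre;PtenL/L HG-PIN (SD, n = 3 each). The measured tumour signal was 2.62-fold lower than in T-3Mb-Erg HG-PIN (log2 change -1.39, SE 0.30, limma adjusted p = 0.0928), which missed the threshold, with differences of -1.75, -1.17 and -1.25 in the 3 mice. Every tumour array was under the gauge. With the gauge in place of the tumour level, the T-3Mb-Erg HG-PIN mean was only 1.14-fold higher. That figure makes no allowance for the spread among arrays. Rab25 ranked 104th of 16635 by p.

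Rab17, a GTPase of apical recycling and transcytosis, was nearly level across the groups. It stood at 4.45, 4.47 and 4.22 in tumours, against 4.60, 4.52 and 4.33 in T-3Mb-Erg HG-PIN, with 4.68, 4.70 and 4.45 in PbCre;PtenL/L HG-PIN. Replicate 3 was the lowest in each group, the groups overlapped, and all 9 values were under the gauge. The change from T-3Mb-Erg HG-PIN was -0.10 in tumours with a 95% interval from -0.54 to 0.34 (limma adjusted p = 0.995). The measured change of Rab25 lay outside that interval, with the Rab17 signal near background throughout.

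Rab27b, a GTPase of secretory vesicle and exosome docking, had its lowest values in tumours and its highest in PbCre;PtenL/L HG-PIN. It measured 3.59, 3.77 and 3.75 in tumours, against 3.82, 3.74 and 4.04 in T-3Mb-Erg HG-PIN, with 4.42, 4.04 and 4.11 in PbCre;PtenL/L HG-PIN. Tumours lay below PbCre;PtenL/L HG-PIN without overlap and overlapped T-3Mb-Erg HG-PIN, and every value was under the gauge. The change against T-3Mb-Erg HG-PIN was -0.17 (95% interval -0.59 to 0.25, limma adjusted p = 0.977), and against PbCre;PtenL/L HG-PIN -0.49 (unadjusted p = 0.0246, limma adjusted p = 0.418).

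The synaptotagmin-like genes Sytl1 and Sytl2, whose products bind RAB27 on secretory vesicles, showed little difference. Sytl1 stood at 4.81, 5.23 and 4.64 in tumours, against 4.96, 4.98 and 5.10 in T-3Mb-Erg HG-PIN, with 5.33, 5.26 and 4.84 in PbCre;PtenL/L HG-PIN. It was the only gene of the list with a tumour mean above the gauge, at 4.89 ± 0.31, and its groups overlapped. Its change between tumours and T-3Mb-Erg HG-PIN was -0.12 (95% interval -0.68 to 0.43, limma adjusted p = 0.995), and it turned to 0.018 without tumour replicate 3. Sytl2 was the dimmest gene, at 2.97, 2.93 and 2.80 in tumours, against 3.12, 3.29 and 3.09 in T-3Mb-Erg HG-PIN, with 2.48, 3.20 and 3.13 in PbCre;PtenL/L HG-PIN. All 9 values of Sytl2 were far below the gauge, so its non-overlap with T-3Mb-Erg HG-PIN (difference of means -0.27) was not tested and is a difference between background-level signals.

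The 2 myosin V genes of the list differed in measured signal, and Myo5b was near background. Myo5c, a class V myosin of exocrine secretory granules and apical tubules, fell more than any other gene of the list. Its levels were 3.91, 3.81 and 3.98 in tumours, against 6.56, 5.98 and 6.04 in T-3Mb-Erg HG-PIN, with 6.81, 5.32 and 6.87 in PbCre;PtenL/L HG-PIN. Every HG-PIN array was above the gauge and every tumour array below it, and PbCre;PtenL/L HG-PIN replicate 2 was the lowest of the HG-PIN arrays. The means were 3.90 ± 0.09 in tumours, against 6.19 ± 0.32 for T-3Mb-Erg HG-PIN and 6.33 ± 0.88 for PbCre;PtenL/L HG-PIN (SD, n = 3 each). The fall relative to T-3Mb-Erg HG-PIN was 4.89-fold in measured signal (log2 change -2.29, SE 0.40, 95% interval -3.16 to -1.42, limma adjusted p = 0.0430, rank 40 of 16635 by p), with -2.65, -2.17 and -2.05 in the 3 mice. With the gauge in place of the tumour level, the T-3Mb-Erg HG-PIN mean was 2.61-fold higher, without allowance for the spread among arrays. The size was steady but the call was not: leaving out single arrays kept the change between -2.41 and -2.11, and the adjusted p missed the threshold without tumour replicate 1 (0.258) or 2 (0.0799). The same held without replicate 1 (0.289) or 2 (0.241) of T-3Mb-Erg HG-PIN, or replicate 3 (0.0536) of PbCre;PtenL/L HG-PIN. It also missed it on the log2(value + 16) scale (-1.53, adjusted p = 0.102).

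Myo5b, which carries RAB11 recycling vesicles to the apical membrane and is mutated in human microvillus inclusion disease, showed no such fall in measured signal. It measured 4.10, 4.51 and 4.30 in tumours, against 4.72, 4.18 and 4.80 in T-3Mb-Erg HG-PIN, with 4.82, 4.39 and 4.62 in PbCre;PtenL/L HG-PIN. The groups overlapped, and in the mouse of replicate 2 the tumour was the higher one, by 0.33. The change was -0.26 against T-3Mb-Erg HG-PIN (95% interval -0.78 to 0.26, limma adjusted p = 0.944), and only 1 of the 9 values was above the gauge. With a T-3Mb-Erg HG-PIN mean of 4.57, under the gauge, a decrease could hardly have been seen.

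Ap1m2 encodes mu1B, the epithelial medium subunit of the AP-1 clathrin adaptor, which sorts basolateral cargo and so helps to keep the membrane domains distinct. Its levels were 3.94, 4.20 and 4.06 in tumours, against 4.95, 5.23 and 5.16 in T-3Mb-Erg HG-PIN, with 5.30, 4.36 and 4.59 in PbCre;PtenL/L HG-PIN. Tumours lay below both HG-PIN groups, all 3 T-3Mb-Erg HG-PIN arrays were above the gauge, and only replicate 1 of PbCre;PtenL/L HG-PIN was. The 3 mice gave nearly the same difference, -1.01, -1.03 and -1.10. The measured signal was 2.07-fold lower in tumours than in T-3Mb-Erg HG-PIN (log2 change -1.05, SE 0.26, unadjusted p = 0.00193, limma adjusted p = 0.190), which missed the threshold. Against the gauge, the T-3Mb-Erg HG-PIN mean was 1.24-fold higher, without allowance for the spread among arrays.

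The junction and polarity genes had intermediate values. Cgn encodes cingulin, a cytoplasmic plaque protein of the tight junction. It stood at 4.51, 4.29 and 4.73 in tumours, against 5.36, 4.55 and 5.38 in T-3Mb-Erg HG-PIN, with 5.35, 4.59 and 5.0 in PbCre;PtenL/L HG-PIN. Replicate 2 was the lowest in all 3 groups, and T-3Mb-Erg HG-PIN replicate 2 lay within the tumour range. The change was -0.59 against T-3Mb-Erg HG-PIN (95% interval -1.24 to 0.07, limma adjusted p = 0.734), negative in 3 of 3 mice.

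Crb3, the Crumbs protein of simple epithelia that organises the apical domain with PALS1 and PATJ, was lower in 2 of the 3 mice. Its levels were 4.33, 5.07 and 4.59 in tumours, against 5.37, 4.97 and 5.25 in T-3Mb-Erg HG-PIN, with 5.17, 4.93 and 4.84 in PbCre;PtenL/L HG-PIN. All HG-PIN arrays were above the gauge, as was tumour replicate 2, which exceeded the HG-PIN of its own mouse by 0.10. The change against T-3Mb-Erg HG-PIN was -0.53 (95% interval -1.10 to 0.04, limma adjusted p = 0.704).

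Set against HG-PIN of mice without the T-3Mb-Erg allele, tumours gave the same 2 leading genes. Lesion and genotype differ together here, and the tumour arrays are shared with the comparison above, so the values stand beside each other and do not repeat it independently. In measured signal Myo5c fell 5.41-fold (log2 change -2.43, SE 0.40, limma adjusted p = 0.0388) and Rab25 fell 3.42-fold (log2 change -1.77, SE 0.29, limma adjusted p = 0.0448). Every tumour array was under the gauge for both. Against the gauge itself, without allowance for spread, the PbCre;PtenL/L HG-PIN mean was 2.88-fold higher in Myo5c and 1.48-fold higher in Rab25. These were 2 of 9 tested, where 0.0721% of all genes were called lower. Ap1m2 stood at -0.68 (adjusted p = 0.408), and the others lay between -0.49 for Rab27b and -0.04 for Sytl2, which was not tested. All 10 changes were negative, against 53.7% of all genes, with a median of -0.39 against -0.03 over all genes tested. At an unadjusted p under 0.05 stood 4 of the 9, against 9.32% of all genes. These 4, Rab25, Rab27b, Myo5c and Ap1m2, also had tumour arrays below all PbCre;PtenL/L HG-PIN arrays, where 7.51% of tested genes did.

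Both of these calls were close to the threshold, and leaving out any of several arrays lost them. Some of those arrays were T-3Mb-Erg HG-PIN, which is not part of this comparison. The sizes were steadier, from -2.94 to -2.17 for Myo5c and from -1.97 to -1.64 for Rab25 without single arrays. When tumour replicate 1 or 3, PbCre;PtenL/L HG-PIN replicate 1 or 3, or replicate 2 or 3 of T-3Mb-Erg HG-PIN was left out, neither passed, with adjusted p values in that order of 0.162, 0.106, 0.215, 0.162, 0.0767 and 0.0626 for Myo5c, and of 0.134, 0.125, 0.232, 0.169, 0.0953 and 0.0544 for Rab25. When replicate 1 of T-3Mb-Erg HG-PIN was left out, Rab25 alone passed, and Myo5c stood at 0.0502.

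**Figure D2:**
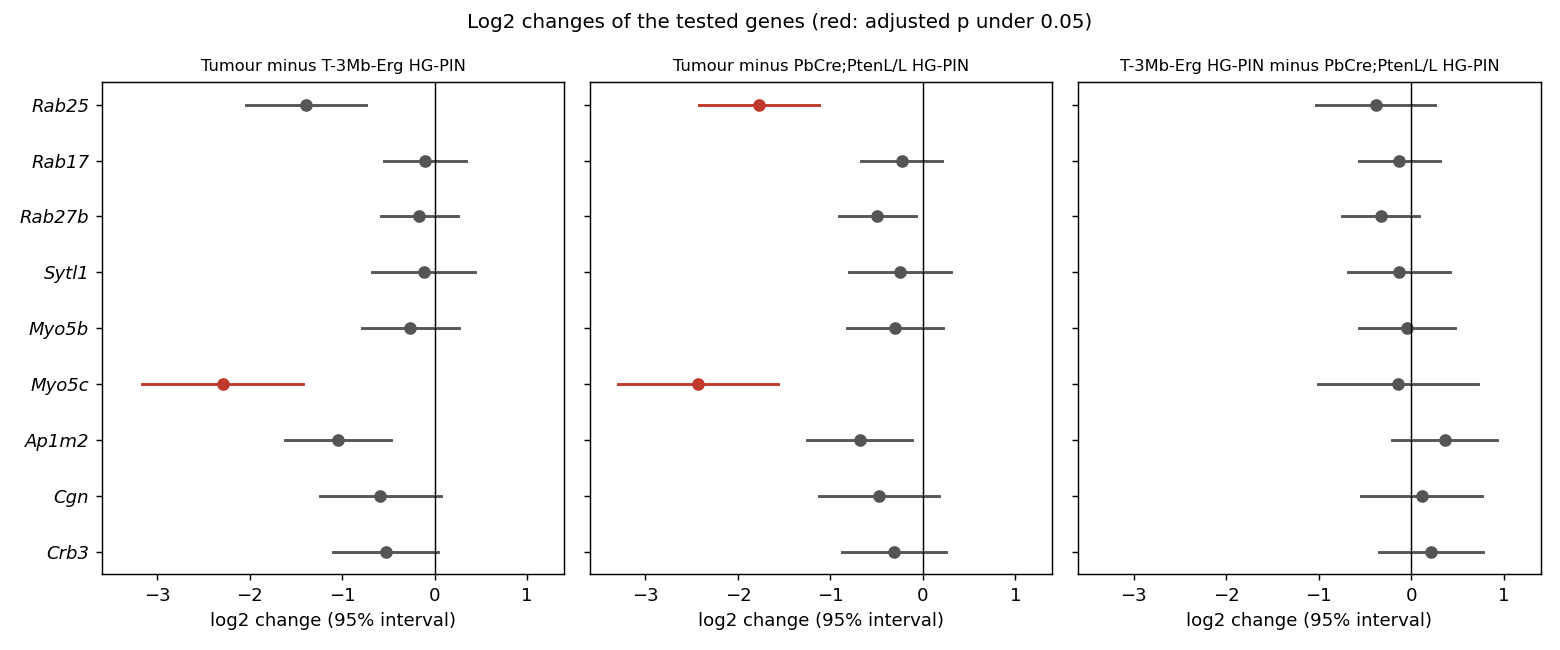
Log2 change (horizontal axis, point) with 95% interval (line) of the 9 tested genes, in 3 panels: tumour minus T-3Mb-Erg HG-PIN, tumour minus PbCre;PtenL/L HG-PIN, and T-3Mb-Erg HG-PIN minus PbCre;PtenL/L HG-PIN; red marks a limma adjusted p under 0.05. Myo5c is red in both tumour panels (-2.29 and -2.43) and Rab25 in the second (-1.77), while every interval of the third panel includes 0.

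Between the HG-PIN groups, which asks what the T-3Mb-Erg allele changes at the same lesion, none of the genes was called. Limma called 0 of the 9 tested genes, none at an unadjusted p under 0.05 either, where 0% of all genes were called and 4.1% had an unadjusted p under 0.05. Changes ran from -0.38 for Rab25 (95% interval -1.03 to 0.26) to 0.36 for Ap1m2 (-0.21 to 0.93), 6 negative and 4 positive, with a median of -0.08. Myo5c stood at -0.14, with an interval from -1.01 to 0.72, so 3 arrays a group do not separate a rise from a fall. Only Rab27b had groups without overlap, T-3Mb-Erg HG-PIN below PbCre;PtenL/L HG-PIN, where 5.25% of all genes did, and its nearest arrays both measured 4.04. The signs of the small changes of Cgn, Myo5b and Myo5c turned when single arrays were left out.

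By group mean, PbCre;PtenL/L HG-PIN was highest and tumours lowest for 6 of the 10 genes, Rab25, Rab17, Rab27b, Sytl1, Myo5b and Myo5c. T-3Mb-Erg HG-PIN was highest and tumours lowest for the other 4, Sytl2, Ap1m2, Cgn and Crb3. The HG-PIN groups, next to each other in every order, did not differ by the test for any tested gene. Tumours differed by the test from the group next above them for Myo5c only.

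Paralogues of the 10 genes were measured on the same arrays. Of 11 listed, 7 (Myo5a, Rab27a, Sytl3, Sytl4, Sytl5, Crb1 and Crb2) were under the gauge on every array, so a decrease in them could not have been seen. Rab11a and Ap1m1 had T-3Mb-Erg HG-PIN means of 4.68 and 4.67, also under the gauge. A decrease in those genes could hardly have been seen either. The 11 listed paralogues had 6 negative and 5 positive changes between tumours and T-3Mb-Erg HG-PIN, a median of -0.00 and 0 limma calls, 0 of them at an unadjusted p under 0.05, and all overlapped. Rab11a and Rab11b, the ubiquitous relatives of Rab25, changed by -0.01 and -0.10 (SE 0.39 and 0.40). Rab11b was well above the gauge throughout, at 7.14, 6.65 and 7.40 in tumours, against 7.30, 7.22 and 6.96 in T-3Mb-Erg HG-PIN. Myo5a, the myosin V of melanosomes and neurons, had a change of 0.48 (SE 0.26, limma adjusted p = 0.774), with 3.72, 4.14 and 4.03 in tumours, against 4.08, 3.32 and 3.05 in T-3Mb-Erg HG-PIN, with 2.97, 2.94 and 2.98 in PbCre;PtenL/L HG-PIN. Its tumour levels exceeded all PbCre;PtenL/L HG-PIN levels (log2 change 1.0, limma adjusted p = 0.165) but stayed under the gauge. Ap1m1, which encodes the widely expressed mu1A subunit, had 5.42, 4.50 and 5.18 in tumours, against 5.03, 4.45 and 4.51 in T-3Mb-Erg HG-PIN, a change of 0.37 (SE 0.30, limma adjusted p = 0.923). Cgnl1, or paracingulin, stood at 0.33 beside -0.59 for Cgn. The remaining paralogues, Rab27a (-0.01), Sytl3 (0.10), Sytl4 (-0.00), Sytl5 (-0.44), Crb1 (0.21) and Crb2 (-0.03), were all under the gauge.

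**Figure D3:**
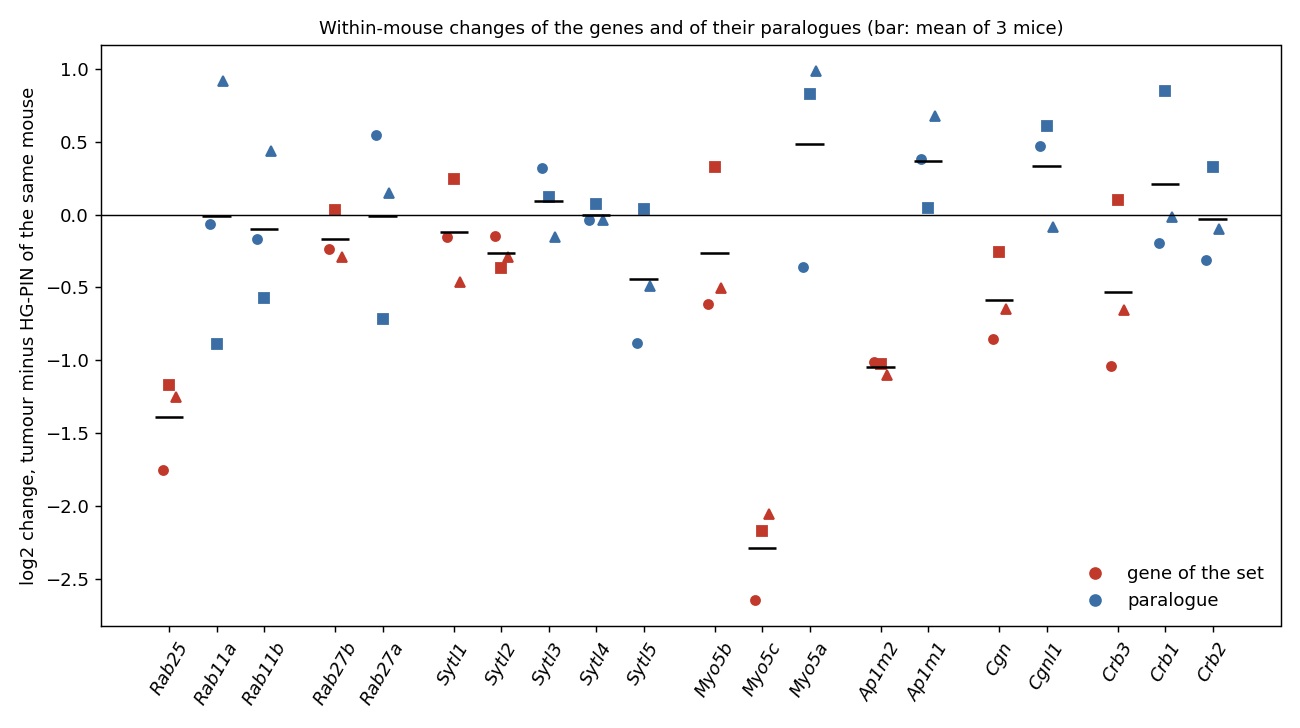
Log2 difference between tumour and T-3Mb-Erg HG-PIN of the same mouse (vertical axis) for the genes of the set with listed paralogues (red) and the paralogues (blue); circle, square and triangle are the mice of replicates 1, 2 and 3 and bars are means of the 3 mice. Myo5c lies between -2.65 and -2.05 and Ap1m2 between -1.10 and -1.01, while Myo5a, Ap1m1 and Rab11a have means of 0.48, 0.37 and -0.01. Myo5a is under the gauge on every array. The T-3Mb-Erg HG-PIN means of Ap1m1 (4.67) and Rab11a (4.68) are under it as well.

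The partners of these genes were followed in 6 further lists of apical machinery, none of which had a called member in any of the comparisons. Genes of apical recycling and exocytosis, mainly RAB11 effectors, further RABs and the exocyst, were 11 negative and 13 positive of 24 tested between tumours and T-3Mb-Erg HG-PIN (median 0.05, against -0.01 over all genes). The smallest p values there belonged to Exoc6b, an exocyst subunit (0.83, limma adjusted p = 0.494), and Rab11fip2, which links RAB11 to MYO5B (0.69, 0.688), both higher in value. The 8 further AP-1 subunit and accessory genes had 5 negative and 3 positive changes (median -0.11), led by Ap1s2, a small sigma subunit, at 1.33 (limma adjusted p = 0.179), and Aftph, an AP-1 binding protein, at -0.93 (0.611). The 6 apical SNARE genes had 4 negative and 2 positive changes (median -0.20), with Stx2 at 0.32 (0.858) and Stx3, the apical syntaxin, at -0.39 (0.918). Of the genes named here, Rab11fip2 and Stx2 were under the gauge on all 9 arrays, and Ap1s2 was above it on only 2.

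Of the 6 further lists, those of the tight junction and the apical membrane had the lowest medians. Of 16 tested polarity complex genes, which include the partners of CRB3, 10 were negative and 6 positive (median -0.07), with Lin7b at -0.92 (limma adjusted p = 0.263) and Patj at -0.56 (0.622). Of 8 tight junction plaque and membrane genes, 7 were negative (median -0.63), with Marveld3 at -1.0 (0.110) and Tjp3, or ZO-3, at -0.91 (0.409). All 10 tested apical membrane genes were negative (median -0.81), with Mal2, a transcytosis protein, at -1.60 (0.127) and the mucin gene Muc1 at -0.98 (0.316). Several of these signals were near background: of 9 arrays, Patj and Muc1 were above the gauge on 1 each and Lin7b on 2. Between T-3Mb-Erg HG-PIN and PbCre;PtenL/L HG-PIN the medians of these 3 lists were 0.13, 0.21 and 0.19.

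**Figure D4:**
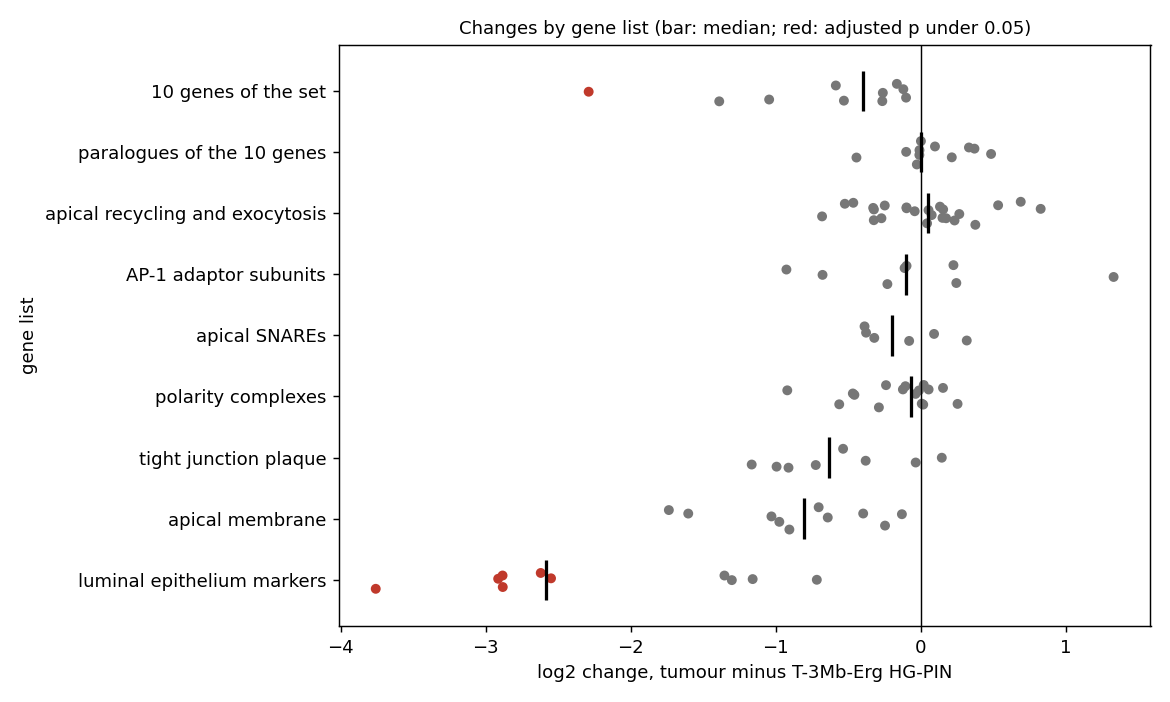
Log2 change between tumour and T-3Mb-Erg HG-PIN (horizontal axis) of each gene (dots) in the 10-gene set, its paralogues, 6 further lists of apical machinery and the luminal epithelium markers; bars are medians, red marks a limma adjusted p under 0.05, and vertical scatter has no meaning. Medians are -0.40 for the 10 genes, -0.00 for the paralogues, -0.81 for apical membrane genes and -2.58 for luminal markers.

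General luminal markers were lower in tumours as well. All 10 were lower than in T-3Mb-Erg HG-PIN, 6 of them called, with a median of -2.58, against -0.40 for the 10 genes. Between T-3Mb-Erg HG-PIN and PbCre;PtenL/L HG-PIN they did not move alike. There all 10 markers had positive changes (median 0.51), while the 10 genes had 6 negative and 4 positive changes (median -0.08). Their summed intensity was 432, 275 and 403 in tumours, against 1698, 1289 and 1333 in T-3Mb-Erg HG-PIN, with 1270, 539 and 1288 in PbCre;PtenL/L HG-PIN. PbCre;PtenL/L HG-PIN replicate 2, the lowest of the HG-PIN arrays in this sum, was also the lowest of them in Myo5c and Ap1m2. Other genes of the list were not lowest there in this way, and Rab17 had its highest value on that array (4.70). Rab17 was under the gauge on all 9 arrays. In bulk captures, fewer epithelial cells and less RNA per cell cannot be told apart, so how far the lower Myo5c, Rab25 and Ap1m2 levels follow a smaller epithelial share was not tested.

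Markers of other cells were measured on the same arrays. The summed intensity of 9 fibroblast markers was 1497, 462 and 3341 in tumours, against 448, 636 and 238 in T-3Mb-Erg HG-PIN, with 212, 169 and 211 in PbCre;PtenL/L HG-PIN, with all 8 tested members positive between tumours and T-3Mb-Erg HG-PIN and none called. The sum of 4 basal markers lay between 95.5 and 130 in tumours, against 520 to 610.0 in T-3Mb-Erg HG-PIN, with 147 to 249 in PbCre;PtenL/L HG-PIN, and 1 of the 4 was called lower. The sum of 7 smooth muscle markers was 208, 175 and 629 in tumours, against 1377, 333 and 245 in T-3Mb-Erg HG-PIN, with 197 to 267 in PbCre;PtenL/L HG-PIN. The sum of 6 endothelial markers lay between 113 and 341 in tumours, against 98.3 to 108 in T-3Mb-Erg HG-PIN, with 4 of the 6 means under the gauge in tumours. That of 5 macrophage markers lay between 78.2 and 168 in tumours, against 119 to 136 in T-3Mb-Erg HG-PIN, with 4 of 5 means under the gauge in tumours, and 1 of them, Cd14, was called lower in tumours than in T-3Mb-Erg HG-PIN (log2 change -1.73, limma adjusted p = 0.0409). None of the tested smooth muscle or endothelial markers was called. All T cell, mast cell and platelet markers (3 each) had means under the gauge in every group, and of 3 neuroendocrine markers only Chga exceeded it, in T-3Mb-Erg HG-PIN. The part of these cells in the differences was not tested.

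Within HG-PIN, where each of the 6 arrays came from its own mouse, the genes varied together only in part. The arrays pool both HG-PIN groups, and so both genotypes, without removing the group means. Each r thus mixes differences between the groups with variation between mice. Of 45 pairs, 27 had a Pearson's r above 0 and 18 below, with a median of 0.16. The highest was 0.96 between Myo5b and Cgn, followed by 0.76 between Cgn and Crb3 and 0.74 between Rab25 and Myo5c, and the lowest was -0.86 between Rab27b and the background-level Sytl2. Ap1m2, which shared the low tumour level with Rab25, had an r of -0.06 with it inside HG-PIN. These values describe 6 arrays that share a platform and differ in range: r with the array's 95th percentile was 0.86 for Myo5c and 0.77 for Rab25, and between -0.48 and 0.51 for the other 8. The r with the mean of the 10 luminal markers was 0.75 for Myo5c, 0.69 for Ap1m2 and 0.31 for Rab25. It was 0.59 for Cgn, 0.52 for Crb3 and 0.38 for Myo5b. The remaining genes had negative values: -0.17 for Rab27b, -0.19 for Sytl2, -0.40 for Rab17 and -0.51 for Sytl1.

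**Figure D5:**
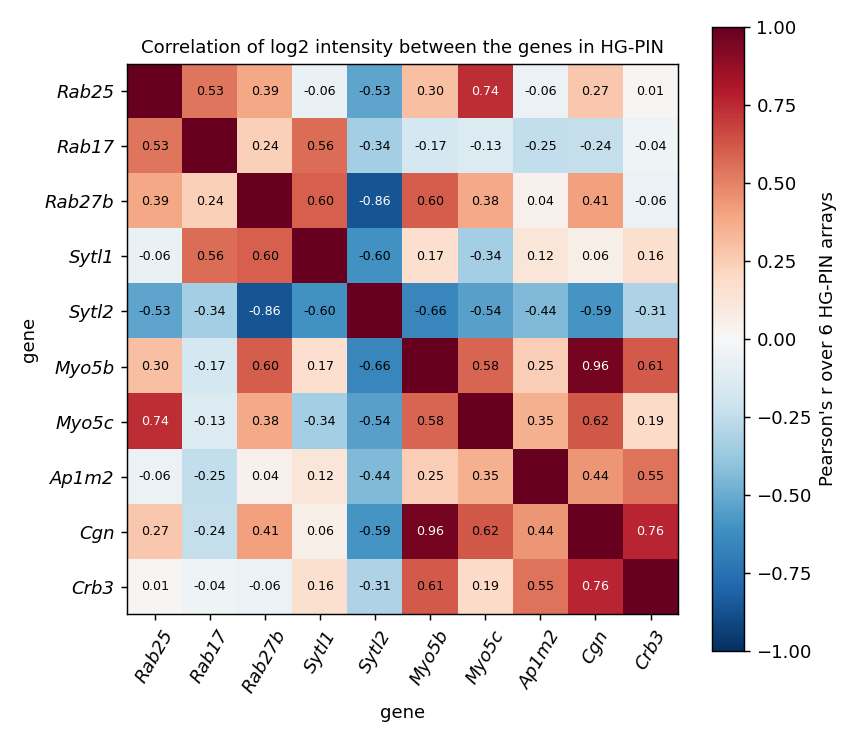
Pearson's r of log2 intensity between each pair of the 10 genes over the 6 HG-PIN arrays (both axes list the genes; colour gives r from -1 to 1). Myo5b, Cgn and Crb3 are positive with each other (0.96, 0.76 and 0.61), Rab25 and Myo5c reach 0.74, and Sytl2 is negative with all others.

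The genes whose pattern over the 9 arrays was most like the mean of the 10 standardised genes were Arhgef38 (r = 0.96), Cxcl17 (0.96), Rin2 (0.96), Syne4 (0.95), Chad (0.95), Pgap2 (0.95), Marveld2 (0.95), Foxa1 (0.94), Rtp4 (0.94) and Mx2 (0.94). That mean was -1.04, -0.41 and -1.09 in tumours, against 0.63, 0.05 and 0.47 in T-3Mb-Erg HG-PIN, with 0.88, 0.23 and 0.27 in PbCre;PtenL/L HG-PIN, so these r values largely restate the gap between tumours and HG-PIN. Over the 6 HG-PIN arrays alone they were between 0.64 for Foxa1 and 0.84 for Chad. Arhgef38, Rin2, Marveld2 and Mx2 were under the gauge on all 9 arrays, and Syne4 was above it on only 1. Marveld2, or tricellulin, is also on the tight junction list, and Foxa1, a transcription factor of prostate epithelium, was 1 of the 36 genes called lower in tumours than in T-3Mb-Erg HG-PIN (log2 change -2.74, limma adjusted p = 0.0306).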

How the data were processed

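The 9 arrays measured total RNA of laser-captured lesions, extracted from fixed tissue and amplified with a NuGEN Ovation system, per the labels' protocols. The deposited values are intensity on a linear scale for 41345 probe sets (1.36 to 13922, array medians 13.6 to 15.4); no source used here states the authors' background correction, summary or normalization, and the changes may depend on it.

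Names of probe sets come from the platform annotation, updated by Entrez identifier, 23521 with 1 symbol, 1814 with several and 16010 with none listed. The brightest probe set stood for each of 22180 symbols. Values were log2-transformed (floor 1), and symbols in the lowest 25% of mean signal (below 3.25) were removed, which left 16635. The test was limma (3.58.1, R 4.3.3) with group means over 9 arrays, the mouse as a random block (consensus correlation -0.01), empirical Bayes with a mean trend, and Benjamini-Hochberg adjustment over all genes tested, called under 0.05. The fit was also run on simulated data with independent noise on each array, without effects of mouse or array range. No result here rests on that run. Tumour and T-3Mb-Erg HG-PIN replicates of 1 number come from 1 mouse by the labels' identifiers; deviations from group means correlated at 0.17, 0.10 and -0.30.

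Genes, lists, gene-naming rule and motifs were chosen with earlier results of these data known. Named genes were the 10 genes, every listed paralogue, in each further list the called genes or else the 2 with the smallest p between tumours and T-3Mb-Erg HG-PIN, and the 10 genes most correlated with the mean of the set, without predicted models and small RNAs; Foxa1, Marveld2 and the markers come under these or the marker lists. Of 143 listed genes and markers, 138 had a named probe set and were used. Correlations between the genes use the 6 HG-PIN arrays, a choice made after seeing the data. Promoter windows are from RefSeq, assembly GRCm38.p6. The search among the 10 genes left out windows on chromosome 18, which holds Rab27b and Myo5b. That filter was not applied to the shares over all windows. For Sytl2 no window was found. The build behind the array annotation is not stated, so no gene coordinates are given. Quantile normalization, filter, pseudocount, probe set choice, mouse block, samples, array weights, array range, variance prior and single arrays were varied.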

Additional observations from a re-analysis of the deposited data

How the results depend on the processing

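The changes and calls of the genes, and the counts over all genes, were recomputed under 19 other settings, 10 that change the processing and 9 that leave out 1 array. The fixed term for each mouse was run only for tumours against T-3Mb-Erg HG-PIN, so the other comparisons had 18. Results on paralogues, further lists, markers, correlations and motifs are given for the reported fit or values only. The number of the 10 genes called between tumours and T-3Mb-Erg HG-PIN, 1 in the reported fit (Myo5c), was 0 on the log2(value + 16) scale, 3 with array weights (Myo5c, Rab25 and Ap1m2) and 2 with the array's 95th percentile as a term (Myo5c and Rab25), and from 0 to 2 without single arrays. Under a replicate block, a fixed term for each mouse, it was 1, again Myo5c, while all genes called went to 25 lower and 1 higher from 36 and 11; the block changed no call among the 10 genes. Between tumours and PbCre;PtenL/L HG-PIN the number, 2 in the reported fit (Myo5c and Rab25), was 1 with no filter on low signal (Myo5c), 0 on the log2(value + 16) scale, 0 on only the 6 arrays of the comparison, 3 with array weights, and from 0 to 2 without single arrays. Between the HG-PIN groups it was 0 under all settings run. The cause of these moves was not tested.

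Myo5c between tumours and T-3Mb-Erg HG-PIN passed in 9 of the 10 processing settings and 4 of the 9 without an array, and its change stayed between -2.41 and -1.53 over all 19. Rab25 there passed with array weights (adjusted p = 0.0196), with the range term (0.0319) and without replicate 3 of T-3Mb-Erg HG-PIN (0.0306), and its change stayed between -1.57 and -0.77. Ap1m2 passed with array weights only, at -1.17 (adjusted p = 0.0260) and, against PbCre;PtenL/L HG-PIN, -0.87 (0.0435). Signs turned only for changes near 0. Cgn between the HG-PIN groups was -0.15 with array weights. Without single arrays Cgn ran from -0.079 to 0.41, Myo5b from -0.16 to 0.13 and Myo5c from -0.65 to 0.12 in that comparison, and Sytl1 between tumours and T-3Mb-Erg HG-PIN from -0.29 to 0.018.

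Counts over all genes moved more. Tumours against T-3Mb-Erg HG-PIN gave 36 lower and 11 higher as reported, 180 and 229 with array weights, 128 and 66 with the range term, 54 and 30 after quantile normalization and 11 and 7 on the log2(value + 16) scale, and without single arrays 0 and 0 (tumour replicate 1) to 25 and 85 (tumour replicate 2). Tumours against PbCre;PtenL/L HG-PIN gave 12 lower and 18 higher as reported, 423 and 515 with array weights, 90 and 106 with the range term, 40 and 48 after quantile normalization, 0 and 8 on the log2(value + 16) scale, 1 and 6 on the 6 arrays, 18 and 27 with the mean of all probe sets, and without single arrays 0 and 0 (PbCre;PtenL/L HG-PIN replicate 3) to 45 and 216 (tumour replicate 2). The HG-PIN groups, with none as reported, gave 1 and 8 with array weights, 0 and 7 with the range term, 2 and 2 on the 6 arrays and at most 2 and 4 without a single array. Signal near background limits the size of every decrease, since the tumour mean of 9 of the 10 genes lay under the gauge.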
